A study of Mus musculus with 14 samples.

Results

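The 7 genes described here form the macrophage growth factor axis with a group of transcription factors of the macrophage lineage: the ligands Csf1 and Il34, their receptor Csf1r, and the factors Spi1, Irf8, Maf and Cebpa. They were taken by name from a table of 22430 genes measured by RNA sequencing in the intima of the mouse thoracic aorta, and all 7 were present. Every mouse lacked apolipoprotein E (Apoe-/-), which raises plasma cholesterol and leads to atherosclerosis. The wild-type control (4 libraries) was Apoe-/- Lmna+/+, and the ubiquitous progerin group (3 libraries) was Apoe-/- LmnaG609G/G609G, whose Lmna allele yields progerin, the shortened lamin A of Hutchinson-Gilford progeria, in all cells that use the gene. The lamin C-only control (4 libraries) was Apoe-/- LmnaLCS/LCS, which makes lamin C and no lamin A. The VSMC progerin group (3 libraries) was Apoe-/- LmnaLCS/LCS SM22αCre, in which Cre driven by the SM22α promoter switches on progerin in vascular smooth muscle cells. That promoter is best known for smooth muscle, and use of it by other cells was not measured here. The labels used give neither age nor sex. Each library was a pool of intima lysates from 12 to 14 mice of 1 genotype, so the spread between libraries is that between pools. The 14 libraries held 27169784 to 35692385 estimated counts.

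Colony-stimulating factor 1 (CSF1, also called M-CSF) is the main survival and growth factor of monocytes and macrophages. In the vessel wall it is known to be made by endothelial cells, smooth muscle cells and fibroblasts, while its receptor, the tyrosine kinase CSF1R, is carried mainly by monocytes and macrophages, which take up and degrade the ligand. Interleukin 34 is a second ligand of the same receptor. PU.1, the product of Spi1, is the master transcription factor of the myeloid lineage and acts with C/EBP alpha (Cebpa), IRF8 and c-MAF (Maf) to set and keep monocyte and macrophage identity.

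Promoter sequences are shown for Csf1, Irf8 and Cebpa, the 3 members found in the RefSeq promoter table (build GRCm38.p6), because their transcripts moved with progerin, Csf1 downwards and the others upwards. Each window runs from 250 bases before the RefSeq start to 50 bases after it, 5′ to 3′ on the gene's own strand, and capitals mark matches to short motifs that were chosen after the sequences had been seen. Both strands were searched.
Csf1 (chr3:107760420-107760719, minus strand): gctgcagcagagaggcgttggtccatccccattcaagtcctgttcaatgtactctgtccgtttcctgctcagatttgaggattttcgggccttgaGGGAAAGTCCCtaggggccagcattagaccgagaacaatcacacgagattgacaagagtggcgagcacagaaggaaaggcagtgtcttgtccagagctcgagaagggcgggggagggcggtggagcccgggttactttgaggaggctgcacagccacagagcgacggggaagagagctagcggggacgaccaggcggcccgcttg
Irf8 (chr8:120736108-120736407, plus strand): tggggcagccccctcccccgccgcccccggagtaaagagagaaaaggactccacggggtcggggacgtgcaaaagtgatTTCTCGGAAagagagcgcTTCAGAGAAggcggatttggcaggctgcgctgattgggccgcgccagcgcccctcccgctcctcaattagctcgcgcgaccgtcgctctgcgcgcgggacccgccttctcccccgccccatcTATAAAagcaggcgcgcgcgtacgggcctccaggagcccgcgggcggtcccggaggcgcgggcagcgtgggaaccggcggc
Cebpa (chr7:35119043-35119342, plus strand): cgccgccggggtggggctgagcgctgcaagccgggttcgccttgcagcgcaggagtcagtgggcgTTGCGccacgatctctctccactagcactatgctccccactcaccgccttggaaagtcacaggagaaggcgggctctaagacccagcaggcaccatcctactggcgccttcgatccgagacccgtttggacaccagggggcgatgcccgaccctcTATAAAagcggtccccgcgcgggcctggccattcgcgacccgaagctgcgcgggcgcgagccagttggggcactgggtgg
The capitals in Csf1 are the letters of a kappa B site (GGGA and TCC with 3 bases between), which match on both strands in overlapping positions, the first at position -155 from the start. This motif is held by 4.59% of 32851 promoter windows of the same length. Irf8 has a TATAAA box at position -31 from the start (13.6% of windows) and, further upstream, 2 matches to TTCNNNGAA, the GAS element bound by STAT factors (8.3% of windows). Cebpa has a TATAAA box at position -30 and the letters TTGCG of a C/EBP half-site (17.4% of windows). The letters GAGGAA of the PU.1 core, held by 28.3% of windows, were not in these 3 windows. A downstream RefSeq start of Irf8 has a window of its own, which is not shown. These matches describe letters and are not evidence of binding.

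Both progerin groups had less Csf1 and more Csf1r, Spi1, Irf8, Maf and Cebpa than their own controls, and Il34 was near the limit of detection in every library. Levels are given as TMM-scaled CPM, counts per 1000000 of the library, which allow a gene to be compared between libraries. Changes are log2 fold changes with their standard error from edgeR's quasi-likelihood test, called at a Benjamini-Hochberg adjusted p under 0.05 over 14269 genes. In ubiquitous progerin all 6 tested members were called, 5 higher and 1 lower, in a comparison where 54.6% of all tested genes were called (26.3% higher, 28.3% lower). In VSMC progerin the same 6 members were called in the same directions, where 42% of all tested genes were called (19% higher, 23% lower). In each of these 2 comparisons all 6 members had groups that did not overlap, as did 56.5% and 45.5% of all tested genes. The 2 progerin comparisons share no library. Between the 2 controls none of the 6 was called by edgeR, while Spi1 and Cebpa were at an unadjusted p under 0.05, DESeq2 and a fit with a replicate block called Cebpa, and limma-voom called none. In that comparison 0.175% of all tested genes were called (25 genes). That comparison shares the wild-type control libraries with the ubiquitous comparison and the lamin C-only control libraries with the VSMC comparison.

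**Figure D1:**
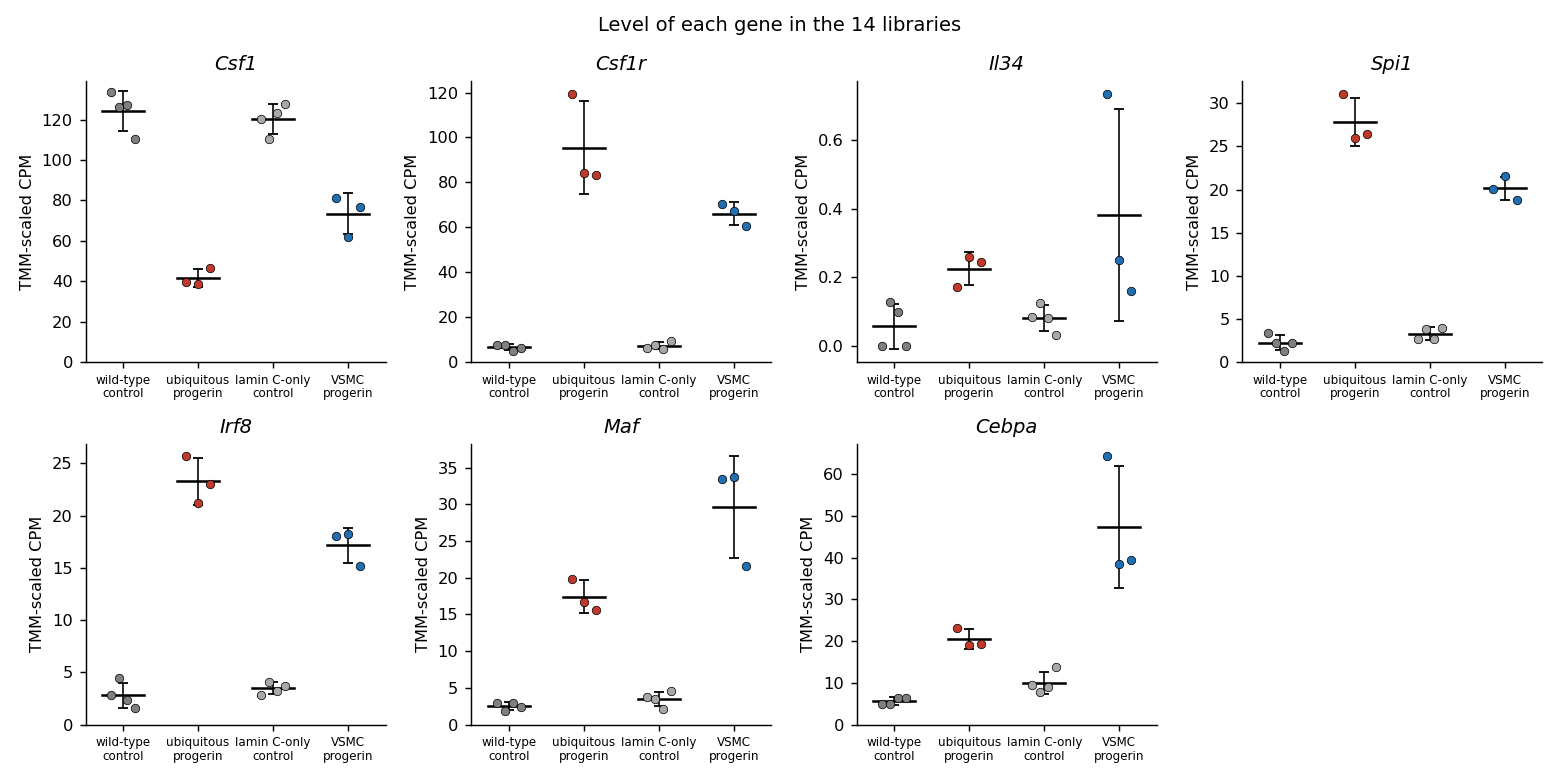
Level of each gene (vertical axis, TMM-scaled CPM) in the 4 groups (horizontal axis). Each point is 1 pooled library, the horizontal bar is the group mean and the error bar is 1 SD. Csf1 is lower in both progerin groups, at 38.6 to 46.7 and 62.0 to 81.3 CPM, and Il34 stays under 1 CPM in every library.

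The ligand Csf1 (ENSMUSG00000014599, GRCm38 chromosome 3, 107741048 to 107760469, minus strand) was at 133.7, 126.1, 127.3 and 110.4 CPM in the wild-type control. The ubiquitous progerin libraries had 39.8, 38.6 and 46.7 CPM. The controls of the other model had 120.1, 110.4, 123.2 and 127.9 CPM, and VSMC progerin had 81.3, 62.0 and 76.9 CPM. All 6 progerin libraries were below all 8 control libraries, and the 3 ubiquitous libraries were below the 3 VSMC libraries, while the 2 controls overlapped. Csf1 fell by 1.58 ± 0.09 on the log2 scale in ubiquitous progerin, 2.98-fold lower (adjusted p = 1.15e-10). In VSMC progerin it fell by 0.71 ± 0.09, 1.64-fold lower (adjusted p = 3.79e-06). The difference of the 2 effects, ubiquitous minus VSMC, was -0.86 ± 0.13 (adjusted p = 2.07e-05), in a contrast where 44.2% of all tested genes were called. Between the controls the change was -0.05 ± 0.08 (adjusted p = 0.954).

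Cell types known to make CSF1 did not keep the same marker levels across the groups. The counts of called markers stand beside 26.3% higher and 28.3% lower of all tested genes in ubiquitous progerin. In VSMC progerin these shares were 19% and 23%. Summed endothelial markers (12 genes) were 23738 to 25615 CPM in the wild-type control and 21124 to 22166 CPM in ubiquitous progerin, with 3 markers called higher and 7 lower. They were 22774 to 24855 CPM in the lamin C-only control, against 22197 to 23206 CPM with VSMC progerin, with 4 called higher and 6 lower. Pecam1 and Vwf had the highest levels of the 12 and moved in opposite directions. In the VSMC comparison Pecam1 went from a mean of 11386 to 8847 CPM, while Vwf went from 6630 to 7727 CPM and Tie1 from 893 to 1575 CPM. In the ubiquitous comparison Pecam1 went from 11610 to 11949 CPM and Vwf from 7244 to 5094 CPM. The direction of this sum therefore depends on the genes in it. In every library this sum was above that of each of the other 8 marker lists, and the tissue is labelled aortic intima. Summed smooth muscle markers (8 genes) ranged from 492 to 830 CPM in the wild-type control and 936 to 983 CPM in ubiquitous progerin (1 called higher, 3 lower), and from 398 to 561 CPM in the lamin C-only control, against 319 to 383 CPM with VSMC progerin (0 higher, 3 lower). The higher sum in ubiquitous progerin came from Tagln, the gene of SM22α, at 208 to 360 CPM in the wild-type control and 737 to 808 CPM in ubiquitous progerin. The other 7 markers summed to 279 to 470 CPM and 175 to 198 CPM there, lower with progerin, and to 233 to 318 CPM and 167 to 188 CPM in the VSMC comparison. Adventitial fibroblast markers (8 genes) summed to 406 to 458 CPM in the wild-type control and 340 to 417 CPM in ubiquitous progerin, with 1 higher and 1 lower, and to 380 to 656 CPM and 894 to 1017 CPM in the VSMC comparison, with 4 higher and 0 lower. Pi16 carried most of the VSMC difference, and in ubiquitous progerin it went from a mean of 207 to 59.0 CPM, against the other 7 genes. Without Pi16 the sums were 194 to 263 CPM and 285 to 356 CPM in the first comparison, so the direction turned. In the second they were 159 to 425 CPM and 262 to 296 CPM. The part of these cells in the fall of Csf1 was not tested. In such bulk libraries fewer cells of a type and less RNA per cell cannot be told apart.

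Il34, the other ligand of the receptor (ENSMUSG00000031750, chromosome 8, 110741829 to 110805924, minus strand), had 0, 4, 3 and 0 reads in the wild-type control libraries and 5, 7 and 7 in ubiquitous progerin. It had 3, 4, 3 and 1 reads in the lamin C-only control, against 20, 8 and 5 with VSMC progerin. The largest value, 20 reads in VSMC progerin pool 1, was 0.735 CPM, and 2 wild-type control libraries had 0, where 3 counts would be 0.0952 to 0.106 CPM. Both progerin groups lay above their controls, but the gene did not pass the filter on low counts and was not tested with the other 6. With no filter it was not called in either progerin comparison (adjusted p = 0.223 and 0.166 over 17926 genes), so a change was not detectable at this depth.

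The receptor Csf1r (ENSMUSG00000024621, chromosome 18, 61100598 to 61132149, plus strand) was at 7.69, 7.58, 4.85 and 6.14 CPM in the wild-type control and at 119, 84.1 and 83.1 CPM in ubiquitous progerin. In the other model the lamin C-only control had 6.15, 7.54, 5.88 and 9.16 CPM, against 70.6, 67.1 and 60.7 CPM with VSMC progerin. Every progerin library was above every control library, and the controls overlapped. Csf1r rose by 3.86 ± 0.19 on the log2 scale in ubiquitous progerin, 14.5-fold (adjusted p = 1.1e-09). It rose by 3.21 ± 0.18 in VSMC progerin, 9.22-fold (adjusted p = 9.92e-09). The difference of the 2 effects, 0.66 ± 0.26, missed the threshold (adjusted p = 0.0525), and it passed in 8 of 20 alternative analyses, with adjusted p from 0.0156 to 0.13. Between the controls the change was 0.13 ± 0.19 (adjusted p = 0.939). Csf1r shares its locus with Hmgxb3 on the opposite strand, and its estimated count was not a whole number in 10 libraries, so some reads were divided between genes. Hmgxb3 itself held 683 to 1000 counts across the libraries.

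The level of the ligand was far above that of the receptor in both controls, close to it in VSMC progerin and below it in ubiquitous progerin. Levels of different genes are compared as TPM, that is counts divided by the summed exon length of the gene and scaled to the same total in each library. Csf1 was at 77.4 ± 7.3 TPM and Csf1r at 3.73 ± 0.78 TPM in the wild-type control (SD, n = 4), and at 78.5 ± 5.0 and 4.28 ± 0.82 TPM in the lamin C-only control (SD, n = 4). In ubiquitous progerin Csf1 was at 23.3 ± 2.3 TPM and Csf1r at 48.9 ± 10.7 TPM, while in VSMC progerin they were at 36.7 ± 5.5 and 30.2 ± 3.2 TPM (SD, n = 3 each). The ratio of Csf1 to Csf1r CPM within a library therefore went from a geometric mean of 19.2 in the wild-type control to 0.441 in ubiquitous progerin, a log2 difference of -5.45. From the lamin C-only control to VSMC progerin it went from 17.0 to 1.11, a log2 difference of -3.94. The groups did not overlap in either comparison, and the exact two-sided permutation p was 0.0571 in both, the smallest that 3 libraries against 4 can give (0.0762 adjusted over 12 ratios), so this test cannot pass 0.05. A ratio within a library does not depend on the scaling between libraries.

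**Figure D2:**
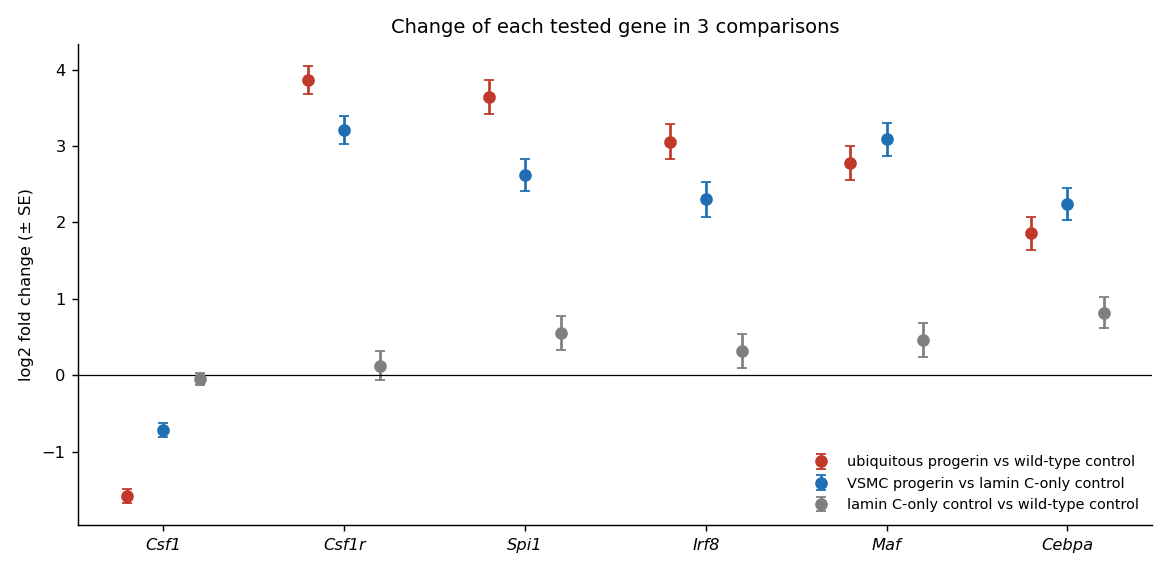
Log2 fold change of the 6 tested genes (vertical axis, points, with error bars of 1 SE from edgeR) in the 2 progerin comparisons and between the controls. Csf1 lies below 0 in both progerin comparisons, at -1.58 and -0.71, and the other 5 genes lie between 1.86 and 3.86.

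Spi1 (ENSMUSG00000002111, chromosome 2, 91082390 to 91115756, plus strand), which encodes PU.1, was at 3.37, 2.15, 1.24 and 2.19 CPM in the wild-type control and 31.1, 26.0 and 26.5 CPM in ubiquitous progerin. With VSMC progerin it was at 20.1, 21.5 and 18.8 CPM, and in its lamin C-only control at 2.63, 3.82, 2.68 and 3.98 CPM. The progerin libraries were all above the controls, and the ubiquitous libraries were all above the VSMC libraries. Spi1 rose by 3.64 ± 0.22 on the log2 scale in ubiquitous progerin (12.5-fold, adjusted p = 2.51e-10). In VSMC progerin it rose by 2.62 ± 0.21 (6.15-fold, adjusted p = 1.73e-08). The 2 effects differed by 1.02 ± 0.30 (adjusted p = 0.0103), the only called difference among the 5 members that rose. Between the controls it was 0.55 ± 0.22 (adjusted p = 0.565).

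Irf8 (ENSMUSG00000041515, chromosome 8, 120736358 to 120756694, plus strand) encodes an interferon regulatory factor that directs progenitors towards monocytes and dendritic cells. Its TATA-box promoter is printed above. It was at 2.87, 4.45, 2.31 and 1.56 CPM in the wild-type control and 25.7, 21.2 and 23.0 CPM in ubiquitous progerin. With VSMC progerin it was at 18.1, 18.2 and 15.2 CPM, and in its lamin C-only control at 2.85, 4.103, 3.25 and 3.74 CPM. The order of the groups was that of Spi1, with no overlap except between the controls. Irf8 rose by 3.06 ± 0.23 on the log2 scale in ubiquitous progerin (8.32-fold, adjusted p = 4.73e-09) and by 2.30 ± 0.22 in VSMC progerin (4.93-fold, adjusted p = 2.33e-07). The difference of the effects, 0.76 ± 0.32, was not called (adjusted p = 0.0639) and passed in 4 of 20 alternatives, with adjusted p from 0.00202 to 0.145. An annotated transcript, Gm20388, covers Irf8 on the same strand and held 1058 to 3547 counts. The estimated count of Irf8 was a whole number in every library, so it gave no sign of reads divided within the pair. Antisense genes are annotated over Il34, Maf and Cebpa, and the strand setting of the counting is not given in the sources used here. Between the controls Irf8 differed by 0.32 ± 0.23 (adjusted p = 0.834).

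Maf (ENSMUSG00000055435, chromosome 8, 115682942 to 115707794, minus strand) encodes c-MAF, a factor of resident and scavenging macrophages that T cells also use. It was at 2.91, 1.89, 2.99 and 2.35 CPM in the wild-type control and 19.9, 16.8 and 15.6 CPM in ubiquitous progerin. With VSMC progerin it was at 33.5, 33.7 and 21.6 CPM, and in its lamin C-only control at 3.74, 3.45, 2.17 and 4.597 CPM. Here the VSMC libraries, not the ubiquitous ones, were the highest, and pool 3 was the lowest of them. Maf rose by 2.78 ± 0.22 on the log2 scale in ubiquitous progerin (6.87-fold, adjusted p = 1.05e-08) and by 3.09 ± 0.21 in VSMC progerin (8.49-fold, adjusted p = 3.66e-09). The effects differed by -0.30 ± 0.31, which was not called (adjusted p = 0.452). The control comparison gave 0.46 ± 0.22 (adjusted p = 0.678).

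Cebpa (ENSMUSG00000034957, chromosome 7, 35119293 to 35121928, plus strand) encodes C/EBP alpha, which is used by fat cells and liver cells as well as by the myeloid lineage. It was at 4.85, 4.93, 6.47 and 6.38 CPM in the wild-type control and 23.2, 19.1 and 19.2 CPM in ubiquitous progerin. With VSMC progerin it was at 64.3, 38.4 and 39.5 CPM, and in its lamin C-only control at 9.39, 7.83, 9.0 and 13.8 CPM. The 4 groups did not overlap, and the order from low to high was wild-type control, lamin C-only control, ubiquitous progerin and VSMC progerin. Cebpa rose by 1.86 ± 0.22 on the log2 scale in ubiquitous progerin (3.62-fold, adjusted p = 4.16e-06) and by 2.24 ± 0.21 in VSMC progerin (4.73-fold, adjusted p = 6.87e-07). The effects differed by -0.39 ± 0.30, which was not called (adjusted p = 0.319). In the lamin C-only control it was 0.82 ± 0.21 above the wild-type control, not called by edgeR (adjusted p = 0.212). The groups of that comparison did not overlap, as for 4.97% of all tested genes. DESeq2 called this difference (adjusted p = 0.00637), as did the fit with the pool number as a replicate block, and adjusted p ranged up to 0.621 over the 15 alternatives.

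Markers of adipocytes were higher on average in VSMC progerin, the group with the most Cebpa, but overlapped with the control in both progerin comparisons. Their sum over 8 genes was 60.8, 65.6, 100.2 and 78.5 CPM in the wild-type control and 80.9, 161 and 91.4 CPM in ubiquitous progerin, with 2 genes called higher and 0 lower (26.3% of all tested genes were called higher). It was 117, 47.3, 108 and 273 CPM in the lamin C-only control, against 557, 258 and 327 CPM with VSMC progerin. There 5 genes were called higher and 0 lower, where 19% of all tested genes were called higher. Over the alternatives the number called higher ranged from 1 to 6. In the wild-type control, the lamin C-only control and VSMC progerin, the pools had the same order in Cebpa and in the adipocyte sum. Wild-type control pool 3, lamin C-only control pool 4 and VSMC progerin pool 1 were the highest of their groups in both. In contrast, ubiquitous progerin pool 1 was the highest of its group in Cebpa and the lowest in the sum. No adipocyte marker was at 0 throughout a group. The part of fat tissue in the Cebpa levels was not tested. Over 14 alternatives, among them leaving out VSMC progerin pool 1, the VSMC change of Cebpa stayed between 1.98 and 2.44 and was called.

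**Figure D3:**
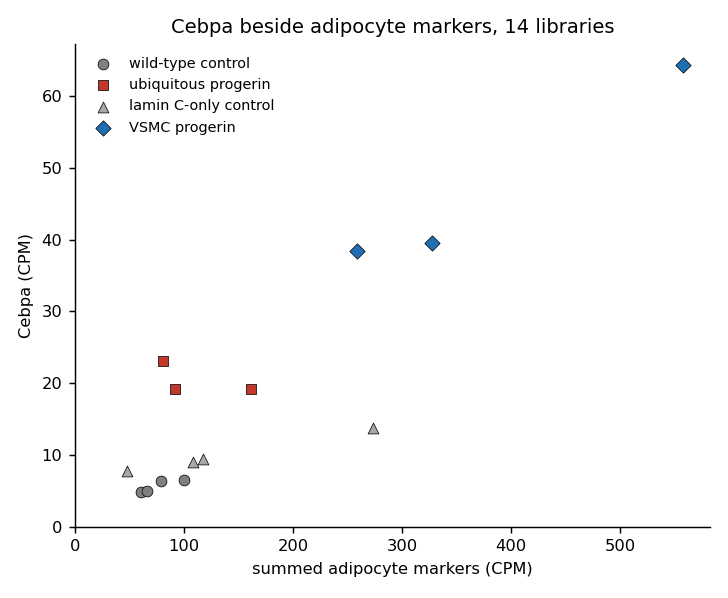
Cebpa (vertical axis, CPM) beside the summed level of 8 adipocyte markers (horizontal axis, CPM), with 1 point for each of the 14 pooled libraries and a symbol for each group. The 3 VSMC progerin libraries are the highest in Cebpa, and the highest of them, at 64.3 CPM, also has the highest marker sum, 557 CPM.

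Macrophage markers rose together with the receptor and the 4 factors. Of 16 markers, 13 were called higher and 0 lower in ubiquitous progerin, with a median log2 change of 3.33 beside -0.0050 over all tested genes. In VSMC progerin 13 were higher and 1 lower (Mertk), with a median of 2.52 beside -0.03. Of all tested genes 26.3% and 19% were called higher in these 2 comparisons. Their sum was 213 to 272 CPM in the wild-type control and 1205 to 1984 CPM in ubiquitous progerin, and 207 to 389 CPM in the lamin C-only control against 782 to 907 CPM with VSMC progerin. None of the 16 was at 0 throughout a group. Mertk was at -0.18 (not called) and -0.55 in the 2 comparisons, and Gpnmb at 3.52 and 0.89 (not called). This pair made up 58.8% to 70.1% of the sum in the wild-type control and 55.2% to 66.8% in the lamin C-only control, against 27.8% to 38.7% in ubiquitous progerin and 21.5% to 24.0% in VSMC progerin.

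Each gene was therefore set against the macrophage marker sum of its own library both with and without this pair, the second being chosen after the values were seen. With all 16 markers the log2 ratio of Csf1r to the sum was higher by 1.16 in ubiquitous progerin and by 1.52 in VSMC progerin, and without the pair it was higher by 0.23 and 0.44. The ratio of Spi1 differed by 1.02 and 0.94 with all markers and by 0.08 and -0.14 without the pair. For Irf8 the differences were 0.45 and 0.60, and -0.48 and -0.48 without the pair, so the direction turned. The ubiquitous value with all markers rested on few libraries: it was 0.75 without wild-type control pool 2, when the groups no longer overlapped, and 0.23 without pool 4. The ratio of Maf differed by 0.09 and 1.4 with all markers and by -0.84 and 0.32 without the pair. The ratio of Cebpa differed by -0.84 and 0.53, and by -1.77 and -0.55 without the pair. No exact two-sided permutation test of these ratios was below 0.0571, the smallest possible, and with the marker pair the groups overlapped for Irf8 (p = 0.343) and Maf (p = 0.629) in ubiquitous progerin and for Cebpa (p = 0.286) in VSMC progerin. The groups stood apart in the same direction under both sums for Csf1r in VSMC progerin (higher) and Cebpa in ubiquitous progerin (lower). For Csf1r in ubiquitous progerin the groups overlapped without the pair (p = 0.114, exact permutation test).

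**Figure D4:**
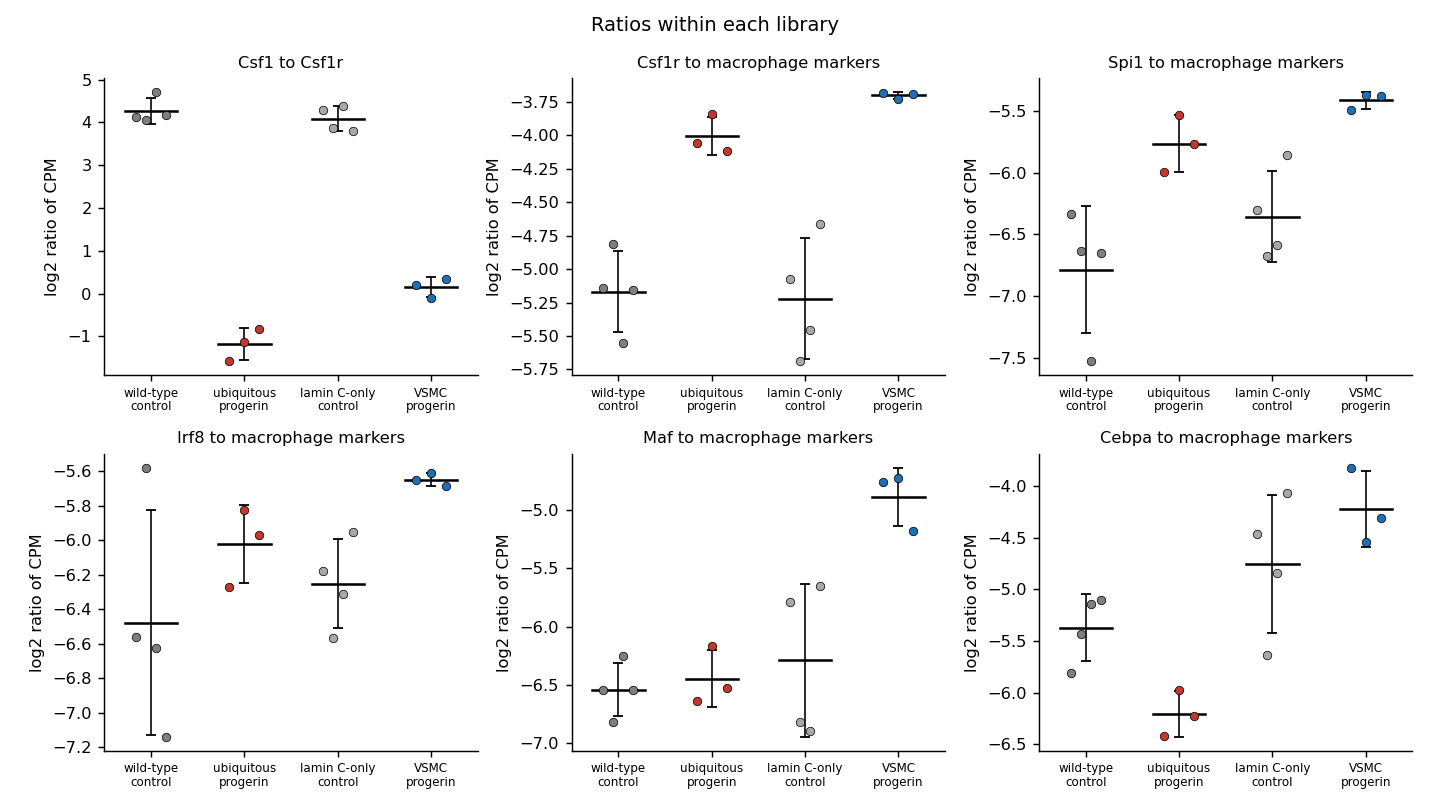
Log2 ratio of CPM within each library (vertical axis) for Csf1 to Csf1r and for 5 genes to the sum of all 16 macrophage markers, in the 4 groups (horizontal axis). Points are pooled libraries, bars are group means and error bars are 1 SD. The Csf1 to Csf1r ratio lies at 3.80 to 4.71 in the 8 control libraries, at -1.59 to -0.83 in ubiquitous progerin and at -0.11 to 0.34 in VSMC progerin.

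Other properties of the libraries also moved with the groups. Mitochondrial transcripts made up 4.603% to 5.42% of counts in the wild-type control and 7.29% to 8.22% in ubiquitous progerin, and 3.53% to 4.61% in the lamin C-only control against 11.5% to 12.1% with VSMC progerin. Markers of other blood cells were low but higher with progerin. Their counts of called genes stand beside 26.3% higher and 28.3% lower of all tested genes in ubiquitous progerin, and 19% and 23% in VSMC progerin. T and B lymphocyte markers summed to 3.05 to 5.39 CPM in the wild-type control and 6.27 to 14.9 CPM in ubiquitous progerin (2 of 7 tested genes higher, 1 lower), and to 2.4 to 5.53 CPM and 9.16 to 11.5 CPM in the VSMC comparison (3 higher, 0 lower). Neutrophil markers summed to 2.6 to 3.93 CPM and 8.45 to 10.4 CPM in the first comparison (3 of 6 higher, 1 lower), and to 2.41 to 3.44 CPM and 5.03 to 10.9 CPM in the second (2 higher, 0 lower). Mast cell markers summed to 2.08 to 2.83 CPM and 4.198 to 7.12 CPM in the first (2 of 5 higher, 0 lower), and to 2.77 to 5.98 CPM and 12.3 to 15.5 CPM in the second (3 higher, 0 lower). Dendritic cell markers summed to 57.9 to 69.0 CPM in the wild-type control, 98.4 to 136 CPM in ubiquitous progerin, 62.1 to 68.0 CPM in the lamin C-only control and 107 to 127 CPM with VSMC progerin (3 and 1 of 6, then 4 and 0). Without Itgax, which macrophages share, they summed to 53.6 to 65.0 CPM in the wild-type control and, lower, 39.0 to 49.0 CPM in ubiquitous progerin. Not all of these other 8 markers fell there. Zbtb46 went from a mean of 25.5 to 15.2 CPM, while Flt3 (0.07 to 0.50 CPM) and Batf3 (0.48 to 1.74 CPM) were higher. In the VSMC comparison the sums without Itgax were 56.7 to 62.6 CPM and 63.2 to 73.8 CPM. Of the dendritic cell genes, Xcr1 was at 0 throughout the wild-type control, and of the neutrophil genes Camp was at 0 throughout the lamin C-only control and Ly6g throughout VSMC progerin. The part of these cells in the rise of Irf8 and Spi1 was not tested. Wild-type control pool 1 stood apart from the rest, with 14331 genes detected against 15195 to 15247 in the other wild-type libraries. Without it all 12 calls of the members in the 2 progerin comparisons held.

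Genes that act on CSF1 or below its receptor mostly rose. Of 20 such genes, 14 were called higher and 4 lower in ubiquitous progerin, with a median log2 change of 2.30, and 16 higher and 1 lower in VSMC progerin, with a median of 1.82. Of all tested genes, 26.3% were called higher and 28.3% lower in ubiquitous progerin, and 19% and 23% in VSMC progerin. Pik3cd, the PI3-kinase subunit of leukocytes, rose by 2.95 and 2.44 in ubiquitous and VSMC progerin, and Rac2, a small GTPase of blood cells, by 3.26 and 2.83. Lyn, a Src-family kinase, rose by 2.33 and 1.77, and Ptpn6, the phosphatase SHP-1, by 3.21 and 3.11. The broadly used adaptor Grb2 rose by 0.21 in ubiquitous progerin and was at -0.06 in VSMC progerin (adjusted p = 0.507), and the ubiquitin ligase Cbl, which targets the receptor, was called in neither (-0.06 and -0.14). Src was not called either, at 0.11 and 0.20. Of the genes that went down in ubiquitous progerin, Adam17, the protease that sheds cell-bound CSF1 and its receptor, fell by 0.85, and Ptprz1, a receptor phosphatase that binds IL-34, fell by 2.15, as did Sdc1, a heparan sulfate carrier that binds IL-34, by 0.78, and Plcg2 by 1.34. In VSMC progerin Sdc1 rose by 1.86 and Adam17 by 0.37, Plcg2 rose by 0.23, and Ptprz1 fell by 2.15. The difference of the 2 effects was called for Sdc1 (-2.64), Plcg2 (-1.57) and Adam17 (-1.22), and for 4 genes in the other direction.

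Among 13 other colony-stimulating factors and their receptors, both tested ligands fell. Flt3l, the ligand of FLT3 and a growth factor of dendritic cells, was at 50.2 ± 4.3 CPM in the wild-type control (SD, n = 4) and 17.4 ± 0.9 CPM in ubiquitous progerin (SD, n = 3). It fell by 1.53 in ubiquitous and by 0.69 in VSMC progerin, with a called difference of -0.84. Kitl, the stem cell factor, fell by 1.18 and 0.66, with a called difference of -0.53. These 2 were the only genes of the list called lower, out of 9 tested, while 6 were higher in ubiquitous progerin and 5 in VSMC progerin. The shares over all tested genes were 28.3% and 23% lower, and 26.3% and 19% higher, in the same 2 comparisons. The receptor chain of GM-CSF, Csf2ra, rose by 1.79 and 1.58, and Il3ra by 0.70 and 0.59. Flt3 rose by 2.71 in ubiquitous progerin and was at 1.51 in VSMC progerin (adjusted p = 0.186), at most at 1.51 CPM in a library, and Kit was called in neither (1.2 and 1.13). Csf2, Csf3, Il3 and Tnfsf11 were too low to be tested, and Il3 had a count of 0 in all 14 libraries.

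Other transcription factors of the myeloid lineage moved in both directions. Of 22 listed factors 20 were tested, with 14 called higher and 2 lower in ubiquitous progerin (median 1.41) and 9 higher and 3 lower in VSMC progerin (median 0.75). Over all tested genes 26.3% were higher and 28.3% lower in the first, and 19% and 23% in the second. Ikzf1 (Ikaros) rose by 3.86 and 2.27 in ubiquitous and VSMC progerin, and Irf5 by 3.88 and 2.55. Cebpb, a C/EBP factor of inflammatory macrophages, rose by 1.85 and 1.80, whereas Cebpd rose by 1.62 in ubiquitous progerin and was at -0.13 in VSMC progerin (adjusted p = 0.466). Id2, an inhibitor of E proteins, and Gata2, a factor also used by endothelial cells, went up in ubiquitous progerin (0.85 and 0.55) and down in VSMC progerin (-1.06 and -0.62), with called differences of 1.91 and 1.17. Zeb2 and Egr2 were called in neither. In the control comparison 1 of the 20 was called, Bhlhe41, at -0.87.

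Genes that carry known PU.1 sites in macrophages mostly rose. Of 14, 13 were called higher and 0 lower in each progerin comparison, with medians of 3.77 and 2.86. Over all tested genes 26.3% and 19% were called higher. Itgam (CD11b) rose by 4.90 and 3.67, Msr1, a scavenger receptor, by 4.19 and 3.28, and Cd14, a co-receptor for lipopolysaccharide, by 2.11 and 1.18. Tlr4, the receptor that acts with it, was the exception, at 0.05 and -0.12 (adjusted p = 0.667 and 0.291). Where the 2 effects differed, ubiquitous progerin had the larger rise: 6 of 14 differences were called higher and 0 lower, beside 22.4% and 21.8% of all tested genes.

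**Figure D5:**
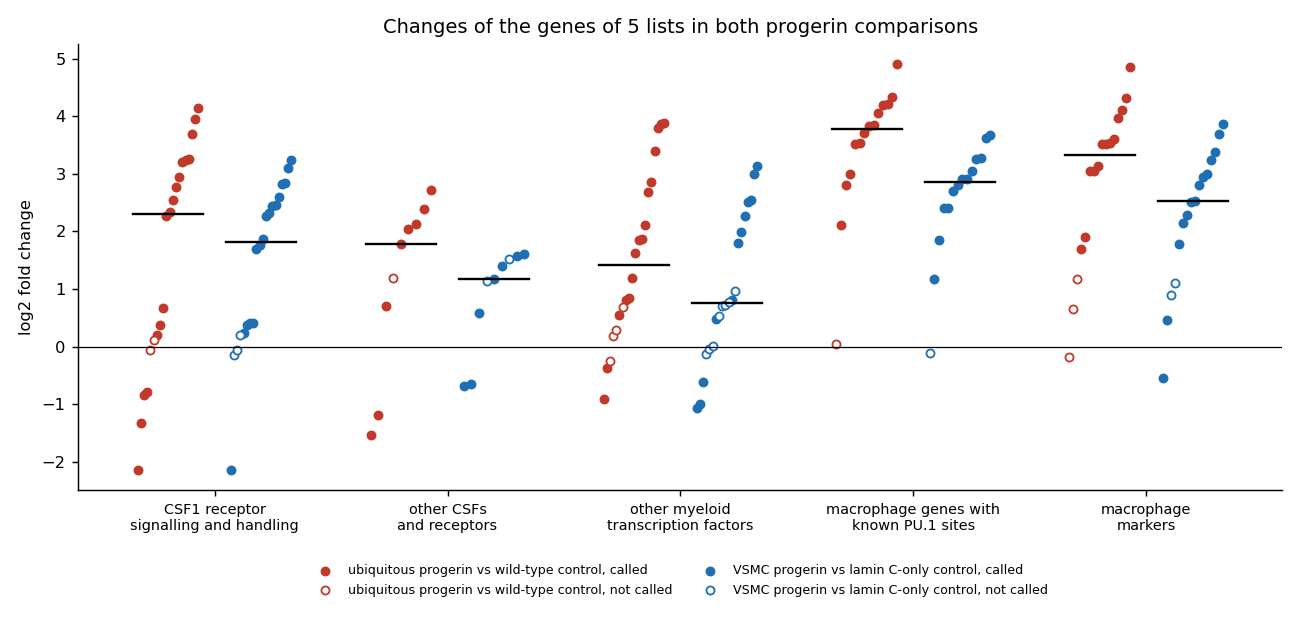
Log2 fold change (vertical axis) of each tested gene of 5 lists (horizontal axis) in ubiquitous progerin against the wild-type control (red) and VSMC progerin against the lamin C-only control (blue). Filled points passed an adjusted p under 0.05, open points did not, and the line is the list's median. The medians of the PU.1 list, 3.77 and 2.86, are the highest of the 5 in each comparison.

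Across the 14 libraries Csf1 ran inversely to the other tested members, less closely for Maf and Cebpa. Pearson's r of log2 CPM with Csf1 was -0.92 for Csf1r, -0.90 for Spi1, -0.89 for Irf8, -0.79 for Maf and -0.64 for Cebpa. That of Csf1r with Spi1 was 0.99 and with Irf8 0.98. Maf and Cebpa were closest to each other, at 0.95. These values describe 14 libraries that share their genotype groups, and they mostly restate the differences between groups. Genes with the symbol of a predicted gene were left out of the search for similar genes. Among the 10515 other tested genes at a mean of at least 2 log2 CPM, the gene most like Csf1 was Kank4 (r = 0.991), followed by Flt3l (0.990) and Zfp931 (0.985). The genes nearest to Csf1r were Pik3cd (0.998), Arhgap30 (0.996) and C1qa (0.993), and those nearest to Spi1 were Arhgap30 (0.995), Cybb (0.994) and Ifi207 (0.992). Irf8 was nearest to Nckap1l, Irf5 (both 0.989) and Lyn (0.987). The nearest to Maf were Ccl6 (0.984), Lpl (0.983) and Cx3cr1 (0.982), and the nearest to Cebpa were Olfml3 (0.979), Slfn2 (0.961) and Tubb3 (0.961).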

How the data were processed

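Polyadenylated RNA of 14 pooled intima lysates was sequenced from directional libraries made with 100 ng of total RNA, per the labels' protocols. The deposited table holds estimated counts per gene that the authors made with Trim Galore 0.6.10, cutadapt 4.1, STAR 2.7.10b and RSEM 1.2.28 on GRCm38, per the submitters' processing notes. Which annotation release, strand setting and filters they used is not given in the sources used here. A second deposited table of log2 values, normalised by the authors with limma, holds 6 of the 7 members and was used as an alternative, fitted with limma.

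Estimated counts were rounded to whole numbers, filtered with filterByExpr (minimum count 10, minimum total 15, proportion 0.7), scaled by TMM and fitted with edgeR 4.0.16 in R 4.3.3 as 1 model of 14 libraries and 4 group means, with Benjamini-Hochberg adjustment over 14269 genes. The script was tested on simulated data. Ratios used an exact permutation test over libraries. Gene positions and exon lengths came from GENCODE M21 on GRCm38 (22388 of 22430 identifiers matched), and promoters from RefSeq on GRCm38.p6. Alternatives were other scalings and filters, limma-voom (limma 3.58.1), DESeq2 1.42.0, a replicate block, fits of only the groups compared, leaving out each library, and other marker sums. Named genes were all members, the 3 genes nearest to each by r, and for each list up to 4 called genes with the smallest and 3 with the largest p; Csf2, Csf3, Il3 and Tnfsf11, the lower-going Adam17, Ptprz1 and Sdc1, Bhlhe41, Mertk, Gpnmb, Tagln, Pi16 and Itgax were named after their values were seen. The members and lists were chosen with earlier results of these data known. Labels do not say whether pools came from separate cohorts, so p-values measure the spread between these pools. Libraries carry no batch label. Some genes that the naming rule picked are not reported here.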

Additional observations from a re-analysis of the deposited data

Results flagged for a closer look

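The log2 ratio of Csf1 to Csf1r in the wild-type control stood out for 1 library: pool 3 was at 4.71 and the other 3 pools at 4.06 to 4.17, a gap of 0.8296 of the group's range, just above Dixon's 95% critical value for 4 samples. Chance flags about 1 in 20 groups, and 26 groups were examined. The fall of Csf1 differed between the 2 progerin models by -0.86 on the log2 scale (-0.862), larger in ubiquitous progerin. The rise of Spi1 differed between them by 1.02, also larger in ubiquitous progerin. Both differences were tested as contrasts of the 2 effects with edgeR (adjusted p = 2.07e-05 and 0.0103). The models differ in Lmna allele and in the control they are set against as well as in the cells that make progerin, and these cannot be told apart here.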

How the results depend on the processing

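All calls of the 6 tested members in the 2 progerin comparisons held in every one of 14 alternatives each, and 363 of 378 values of members under alternatives kept their direction and side of the threshold. Csf1r between the controls, not called, went from 0.13 to -0.01 (-0.0114) without lamin C-only control pool 4, and the other 14 were differences that became called. The difference of the effects on Csf1r was called under the replicate block (0.65) and DESeq2 (0.65), and leaving out 1 library gave 0.45 to 0.74, called without pool 1 or 2 of the wild-type control, pool 2 or 3 of ubiquitous progerin, or pool 1 or 3 of the lamin C-only control (0.73 to 0.74). That of Irf8 was called with limma-voom (0.85) and the replicate block (0.82), and leaving out 1 library gave 0.56 to 1.08, called without wild-type control pool 2 (1.08) or lamin C-only control pool 1 (0.84). Cebpa between the controls was called with the replicate block (0.79) and DESeq2 (0.82). Same-numbered pools did not deviate together (correlations of -0.05 to 0.02), so no pairing by number was seen, though so few pools cannot exclude it. The replicate block changed no other call of a member. The count of genes called between the controls, 25, was 40 with no filter, 98 with DESeq2, 16 with only the groups compared, and 8 to 45 when 1 library was left out (45 without wild-type control pool 2, 8 without its pool 3 or lamin C-only control pool 3, and 12 to 16 without wild-type control pool 1 or 4 or lamin C-only control pool 1 or 2). Against the first 8 macrophage markers, the log2 ratio of Csf1r in ubiquitous progerin was 1.43 and that of Maf 0.36 (0.362). In ubiquitous progerin a pseudocount of 0.5 CPM gave 0.26 for Irf8 and -0.09 for Maf (0.45 and 0.09 without it), and leaving out 1 library gave -0.04 to 0.19 for Maf, below 0 without ubiquitous progerin pool 2. Cebpa in VSMC progerin was 0.24 without lamin C-only control pool 2 and 0.33 without VSMC progerin pool 1 (0.53 with all). Without Mertk and Gpnmb, chosen after seeing the data, the ratios of Csf1r were 0.23 and 0.44, of Spi1 0.083 and -0.14, of Irf8 -0.48 and -0.48, of Maf -0.84 and 0.32, and of Cebpa -1.77 and -0.55 in ubiquitous and VSMC progerin. Beside the marker sums, the cause of these shifts was not tested. Other list counts that moved by over 1.5 times did so by few genes: called adipocyte markers were 0 to 4 in ubiquitous and 1 to 6 in VSMC progerin, and endothelial markers called lower in VSMC progerin 3 to 6. Low counts limited Il34, whose change was not detectable.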
